A study of Mus musculus with 32 samples.

Results

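The nuclear genes of oxidative phosphorylation were read in RNA-seq counts from 8 sorted fractions of mouse bone marrow at 2 ages. Members were the genes whose symbol begins with Nduf, Uqcr, Cox4 to Cox8 or Atp5, or is Sdha, Sdhb, Sdhc or Sdhd, and whose counts summed to at least 320 over the 32 libraries. Of the 24421 genes counted, 92 matched by symbol and 87 met the minimum, and all 87 passed the filter on low counts that left 14154 genes for testing. The 5 that missed the minimum were Cox7a1 with 58 counts in all libraries together, Ndufa4l2 with 6, and Cox7b2, Cox8b and Cox8c with 0.

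All cells came from female C57BL/6 mice with no transgene or treatment named in the labels, at 10 weeks (Young) or 20 months (Aged). Hematopoietic stem cells (HSCs) and the multipotent progenitors MPP1 to MPP4 were sorted as Lin-, Sca-1+, c-kit+ cells that lacked IL-7 receptor. HSCs were CD34- among them and the 4 MPP fractions CD34+. HSCs and MPP1 were CD150+ and CD48-, MPP2 was positive for both, MPP3 and MPP4 were CD48+ but CD150-, and Flt3 was present on MPP4 alone. GMPs (granulocyte and macrophage progenitors) and MEPs (megakaryocyte and erythrocyte progenitors) were Sca-1- c-kit+ cells, with FcgR and CD34 present on GMPs and absent from MEPs. CLPs (common lymphoid progenitors) carried IL-7 receptor and low Sca-1 and c-kit. Each of the 16 groups had 2 libraries. Cells of one age were pooled before sorting according to one passage of the study, so the p-values may measure only technical spread between duplicates and not the spread between mice.

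Oxidative phosphorylation takes place in the inner mitochondrial membrane. Complexes I and II take electrons from NADH and succinate, complex III passes them to cytochrome c, complex IV hands them to oxygen, and ATP synthase uses the proton gradient that complexes I, III and IV build. HSCs are known for relying on glycolysis in a quiescent state, and mitochondrial respiration is known to rise as they divide and differentiate. The members comprised 7 core subunits, 29 accessory subunits and 8 assembly factors of complex I, 4 genes of complex II, 8 of complex III, 15 of complex IV and 16 of ATP synthase. Ndufa4, named for complex I, was counted with complex IV, Atp5s was placed with ATP synthase by symbol only, and Atp5sl, despite its symbol, was counted with the assembly factors of complex I. Subunits made from mitochondrial DNA were not analysed here.

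Members were mostly short transcripts from all over the genome. They lay on 19 chromosomes, with 3 members on X, and their transcripts had a median of 780 bases (315 to 3632). Of the 87, 52 were under 1000 bases, against 8.15% of the 14004 tested genes with a known transcript, whose median was 2793 bases. Median GC content was 51.5% in members and 50.4% in all tested genes. For this reason the medians over all members are given with those of all tested genes and of the 1102 other tested genes under 1000 bases.

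Per kilobase of transcript the catalytic subunits of ATP synthase led. As a mean over the 16 groups, Atp5b (the beta subunit) had 1100 CPM (counts scaled to a common library size) per kilobase and Atp5a1 (the alpha subunit) 594. Cox4i1 followed with 443, Atp5g3 with 430 and Cox6a1 with 357. At the other end stood Ndufaf4 and Ndufaf5, both assembly factors of complex I, with 10.9 each, and Cox4i2 with 1.88. Summed counts of a member ranged from 614 to 913664.

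The members' summed level separated 2 kinds of fraction. In young HSCs the 87 genes summed to 9965 and 10835 CPM in the 2 libraries, and in young MPP1, MPP2, MPP3 and MPP4 to between 9569 and 11223 CPM. Young GMPs stood at 20050 and 18611 CPM, young MEPs at 20164 and 20485, and young CLPs at 13758 and 13918. These are 1.86, 1.95 and 1.33 times the young HSC mean. Members took 1.05% to 2.05% of all counts in a library.

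With age the sum was higher in the early fractions and lower in GMPs and CLPs. Aged HSCs had 10957 and 12547 CPM, 1.13 times the young mean, with no overlap between the ages but with aged duplicates further apart than the group means. Aged MPP1 had 12175 and 11927 CPM, aged MPP2 13818 and 13664, aged MPP3 13957 and 14075, and aged MPP4 14285 and 13864. The ratio to the young mean was lowest for MPP1 (1.22), 1.29 for both MPP2 and MPP3, and highest for MPP4 (1.34), and no aged library of these fractions reached down to a young one. Aged GMPs had 16249 and 17233 CPM, 0.866 times the young mean, and aged CLPs 12279 and 12662, 0.901 times. MEPs overlapped between the ages, with 21579 and 20277 CPM in aged cells. In bulk RNA a change in the mix of cells and a change in RNA per cell cannot be told apart.

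**Figure D1:**
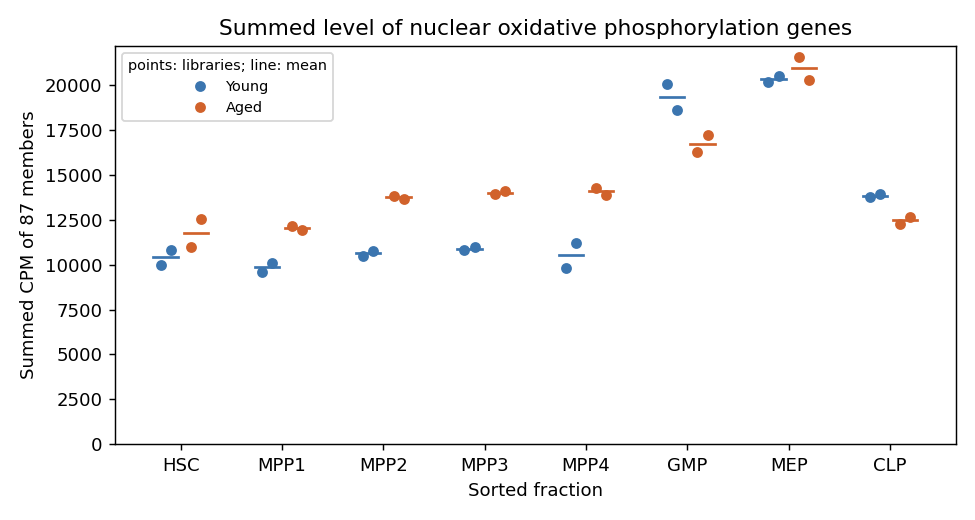
Summed level of the 87 members in CPM (TMM-scaled) for each fraction, with 1 point per library, young and aged side by side, and a bar at the mean of the 2 libraries. The 8 aged MPP libraries lie between 11927 and 14285, above the 8 young MPP libraries at 9569 to 11223, while aged GMPs and CLPs lie below their young counterparts.

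Total counts per library ranged from 11237384 to 17723245 and TMM factors from 0.807 to 1.11. Of the genes of the sorting antigens, Il7r had 158 CPM in young and 195 in aged CLPs, Fcgr3 481 and 493 in GMPs, Flt3 1060 and 732 in MPP4, and Cd34 was lower in young HSCs (204) than in young MPP1 (654). Of these 8 genes, 5 were lower with age in MEPs (Slamf1, Cd48, Flt3, Il7r and Fcgr3), where Il7r went from 13.4 to 0.309 CPM and Cd48 from 53.0 to 14.3, and 2 were lower in each of MPP2, MPP3 and MPP4. Duplicates were close, with a median ratio of 1.06 between the 2 libraries of a group over members, and 83 members had no group in which duplicates differed by more than 2-fold. The exceptions were Ndufs5, in 8 of 16 groups, Atp5g1 and Cox6a2 in 2 each, and Cox4i2 in 1. Young CLPs gave 534 and 19 counts of Ndufs5, a complex I accessory subunit, so its values bear on no age difference.

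Reads were 60 bases long, and near-identical copies limit some members. Of all windows of that length in their transcripts, 44 members shared none with another gene, 22 shared 10% to 50%, and Atp5g2 (87.2%), Atp5l (82.9%), Atp5g1 (63.5%) and Cox7c (52.0%) shared more than that. Exons of 62 members overlapped no other gene, and in 17 members over 10% of exonic bases did, among them Ndufb2 (50.3%), Atp5o (48.6%), Cox5a (41.7%), Ndufb6 (39.0%), Atp5l (24.4%), Atp5f1 (21%), Cox4i1 (18%) and Ndufa11 (12.8%). The counts of these genes may be uncertain, because no use of strand was stated. Part of the overlap of Ndufb2 and Atp5o lies on the same strand, for Atp5o with a second entry of the same name. Overlap was taken from GENCODE M21 and the authors counted over an iGenomes annotation, so these percentages do not measure the uncertainty.

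Which members changed with age in stem cells and multipotent progenitors was asked in each fraction. A gene was called when its adjusted p was under 0.01 in the edgeR quasi-likelihood test. In HSCs 6 of 87 members (6.9%) were called higher, against a background of 3.74% of all tested genes, and 0 lower, against 1.66%. Of the other short genes 5.17% were higher in HSCs, near the share of members. MPP1 had 23 higher (background 4.71%) and 0 lower (2.09%), MPP2 38 higher (4.49%) and 0 lower (3.31%), and MPP3 39 higher (8.14%) and 0 lower (5.79%). In MPP4 52 were higher (10.3%) and 1 lower (6.27%). At an unadjusted p under 0.05 the numbers lower in HSCs, MPP1, MPP2 and MPP3 were 0, 1, 1 and 1, and DESeq2 called 0, 1, 0 and 0 lower. With offsets for GC content and length 1 was called lower in each of these fractions. The HSC count varied with the library left out. Each such fit also redid the filter on low counts, then set by a group of 1 library, the scaling and the spread. Its counts of calls therefore do not show the weight of that library alone. With 1 library left out, the members' median log2 fold change was 0.10 to 0.30 in HSCs and 0.25 to 0.37 in MPP1. It was 0.34 to 0.41 in MPP2 and 0.30 to 0.55 in MPP4. Fitted on the 4 libraries of a fraction alone, HSCs had 0 calls (18 members higher and 0 lower at an unadjusted p under 0.05). MPP1 had 51 (1 of them lower), MPP2 68 (1 lower) and MPP4 13 (0 lower).

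The median log2 fold change of the members was 0.24 in HSCs, and for the 4 MPP fractions, taken from MPP1 on, it was 0.31, 0.38, 0.36 and 0.41. From HSCs to MPP4, all tested genes had medians of 0.02, 0.00, -0.02, -0.04 and -0.02. The other short genes had medians of 0.16, 0.07, 0.10, 0.03 and 0.02, so in HSCs short transcripts in general were shifted toward higher values. With offsets for GC content and length the members' median was 0.09 in HSCs, 0.21 for MPP1, 0.26 for MPP2 and 0.30 for MPP3. A positive difference was found for 78 members in all of MPP1 to MPP4, and for 73 in HSCs as well. Shares of all tested genes were not taken for these joint counts. Singly, 79 members were positive in HSCs and 81 to 84 in each MPP fraction. Of the 14154 tested genes 7466 and 6247 to 6664 were positive, and of the 1102 other short genes 752 and 567 to 677.

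**Figure D2:**
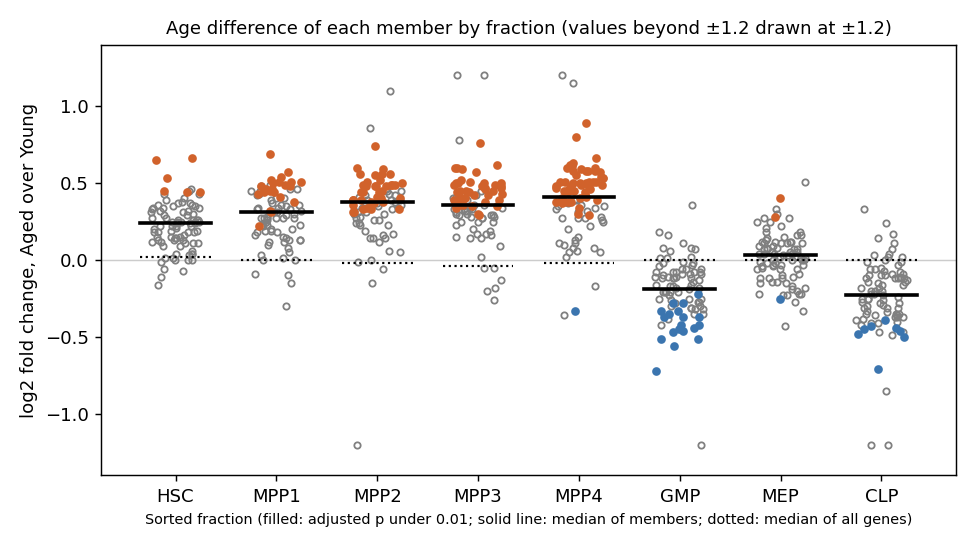
Log2 fold change, Aged against Young, of each of the 87 members (1 point each, filled where called at an adjusted p under 0.01) by fraction, with a solid line at the members' median, a dotted line at the median of all tested genes, and values beyond the axis drawn at its edge. The solid lines lie between 0.24 in HSCs and 0.41 in MPP4 in the first 5 fractions and at -0.19 in GMPs, 0.03 in MEPs and -0.23 in CLPs.

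Every complex had called members in MPP2, MPP3 and MPP4. In MPP4, 13 of 16 ATP synthase genes, 9 of 15 complex IV genes, 6 of 8 of complex III and 4 of 4 of complex II were higher, with medians of 0.46, 0.49, 0.41 and 0.43. Complex I had 3 of 7 core subunits, 15 of 29 accessory subunits and 2 of 8 assembly factors higher, with medians of 0.38, 0.38 and 0.36. In MPP1 the calls were 7 of 16 in ATP synthase, 7 of 15 in complex IV, 2 of 8 in complex III, 1 of 7 core and 6 of 29 accessory subunits of complex I, and 0 in complex II and among assembly factors. In MPP2 they were 8, 7, 5, 4 and 10 in the same order, with 3 of 4 in complex II and 1 assembly factor. In MPP3 they were 9, 8, 6, 3 and 11, with 2 of 4 in complex II and 0 assembly factors. The 6 calls in HSCs were 3 of complex IV and 1 each of complex I, complex III and ATP synthase.

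**Figure D3:**
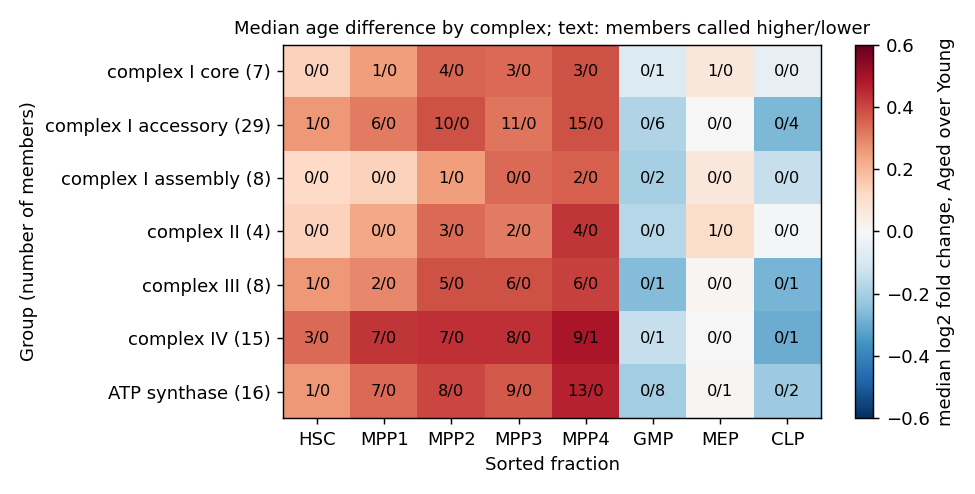
Colour gives the median log2 fold change, Aged against Young, of the members of each complex (rows) in each fraction (columns), with the number called higher and lower printed in each cell. Complex IV and ATP synthase reach 0.49 and 0.46 in MPP4, and complex IV lies at -0.30 in CLPs.

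Among genes called higher, 5 members were called in HSCs and in all 4 MPP fractions: Uqcrq, Atp5k, Cox5a, Cox6b1 and Cox6c. In all of MPP1 to MPP4 18 were called, and 57 in at least 1 of them. The shares of all tested genes called in such sets of fractions were not taken, so these joint counts only describe the members. Uqcrq (chr11:53427922-53430831, minus strand of mm10) encodes a small subunit of complex III and shares no window with another gene. Its levels in HSCs were 35.5 and 36.1 CPM in young and 49.8 and 63.6 CPM in aged libraries. In MPP4 they were 36.1 and 46.0 CPM in young and 81.7 and 69.8 CPM in aged libraries. The ages did not overlap in any of HSCs and MPP1 to MPP4, and Uqcrq had the largest rise of the called members in each of these 5 fractions. Its fold change was 1.58 in HSCs (log2 0.66, SE 0.12, adjusted p = 5.44e-04), 1.62 to 1.69 across MPP1 to MPP3, and 1.85 in MPP4 (log2 0.89, SE 0.11, adjusted p = 6.61e-06).

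Atp5k (chr5:108433244-108434448, minus strand) encodes subunit e of ATP synthase, which takes part in joining the enzyme into dimers. It had 20.2 and 20.3 CPM in young against 25.5 and 33.0 CPM in aged HSCs, and 17.9 and 23.7 against 32.7 and 32.8 CPM in MPP4. The aged libraries lay above the young ones in each of these fractions. The log2 fold change was 0.53 in HSCs (SE 0.13, adjusted p = 0.00892), 0.57 in MPP1, 0.62 in MPP3 and 0.66 in MPP4 (adjusted p = 5.33e-04).

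The other 3 genes of this set encode nuclear subunits of cytochrome c oxidase (complex IV). Cox5a (chr9:57521274-57532426, plus strand), an early-assembling subunit of the enzyme, had 88.9 and 90.7 CPM in young HSCs and 109 and 136 CPM in aged HSCs. In MPP4 it had 117 and 145 CPM in young and 240 and 217 CPM in aged libraries, a log2 fold change of 0.80 (SE 0.10, adjusted p = 5.35e-06). Its gap between the ages in MPP4 was several times the gap between duplicates. Cox6b1 (chr7:30616861-30626151, minus strand), which faces cytochrome c, rose by 0.44 in HSCs and by 0.49 in MPP4 on the log2 scale. Cox6c (chr15:35925886-35938246, minus strand) rose by 0.44 and 0.48.

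**Figure D4:**
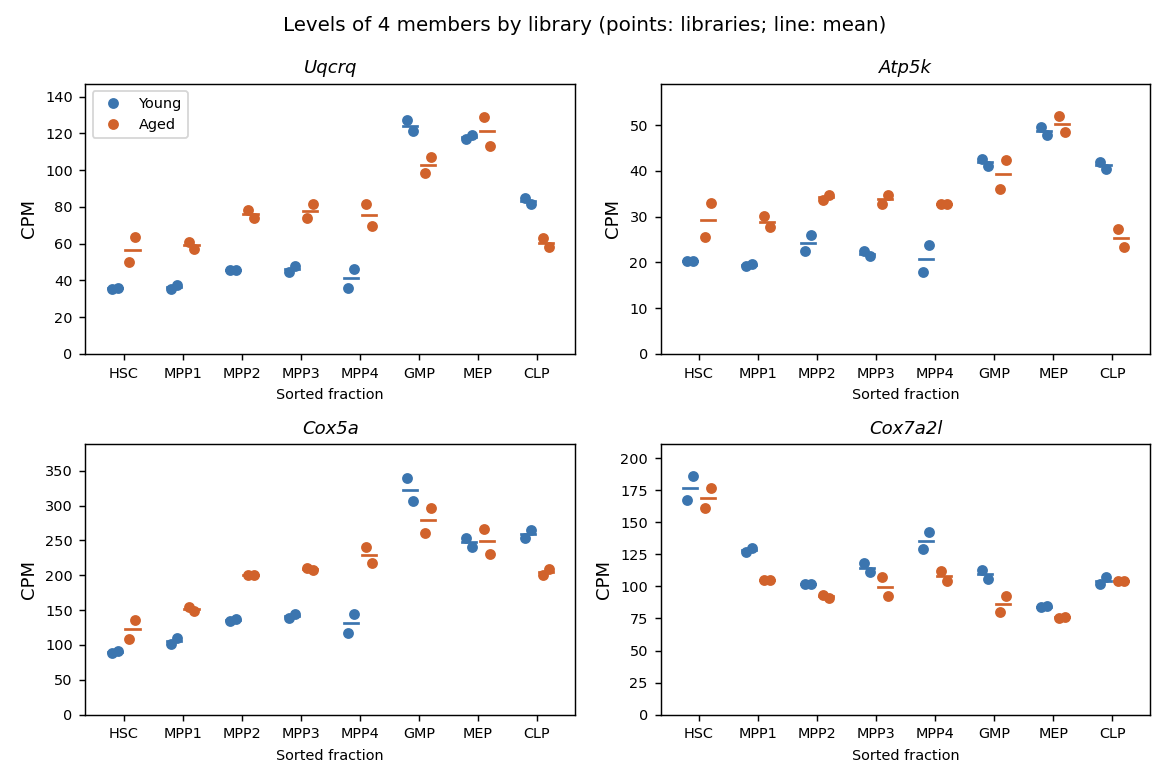
CPM of Uqcrq, Atp5k, Cox5a and Cox7a2l in each of the 32 libraries by fraction and age, with a bar at each group's mean. For Uqcrq, Atp5k and Cox5a both aged libraries lie above both young ones in HSCs and MPPs and below them in CLPs, and for Cox7a2l they lie below in MPP4 and GMPs.

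Other large rises were found in complex I and ATP synthase. Ndufa1, an accessory subunit of complex I on chromosome X, had 22.4 and 23.7 CPM in young and 32.8 and 39.4 CPM in aged HSCs (log2 fold change 0.65, SE 0.12, adjusted p = 8.68e-04). Ndufa11, another accessory subunit, rose by 0.54 in MPP1 (adjusted p = 0.00467). Ndufv2, a core subunit with an iron-sulfur cluster, had 109 and 115 CPM in young and 172 and 167 CPM in aged MPP2 (log2 0.60, SE 0.12, adjusted p = 0.002). Cox7c of complex IV rose by 0.59 in MPP2 (adjusted p = 0.00341). Atp5o, which links the catalytic head of ATP synthase to its outer stalk, had 120 and 116 CPM in young and 175 and 184 CPM in aged MPP3 (log2 0.60, adjusted p = 2.93e-04).

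Atp5b had 1490 and 1600 CPM in young and 2220 and 2200 CPM in aged MPP4, and its log2 fold change was 0.32 in MPP1 (adjusted p = 1.31e-04) and 0.51 in MPP4 (adjusted p = 1.82e-07). In HSCs it had 1320 and 1400 CPM in young and 1410 and 1530 CPM in aged libraries (log2 0.11, adjusted p = 0.18), which was not called. Atp5a1 was called in all 4 MPP fractions, by 0.22 to 0.45, and not in HSCs (0.04). Ndufv1, which binds NADH, was called in MPP1 to MPP4 by 0.34 to 0.58, and Ndufs1, the largest core subunit, in MPP2 (0.33) and MPP3 (0.34). Of complex II, Sdhb was called in MPP2 to MPP4 by 0.36 to 0.46 and Sdha, which oxidises succinate, in MPP4 only (0.29). Of complex III, Uqcrc1 (0.39 to 0.45) and the iron-sulfur protein Uqcrfs1 (0.29 to 0.33) were called in MPP2 to MPP4. Cox5a apart, the role genes of complex IV included Cox4i1, the main form of its subunit 4, which was called in 0 of 8 fractions with log2 values of 0.15 in HSCs and 0.32 in MPP4.

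In the main edgeR fit, a fall with age in an early fraction was called for Cox7a2l alone, which was placed with complex IV by its symbol. It had 129 and 142 CPM in young and 112 and 104 CPM in aged MPP4 (log2 fold change -0.33, SE 0.081, adjusted p = 0.00451). The young and aged libraries did not overlap there. In MPP1 its value was -0.30 (adjusted p = 0.018), which was not called, and in HSCs -0.06. In all, 27 members were called in none of the 8 fractions, among them Cox4i1, Uqcrh, Ndufa4, Ndufa7, Cox6b2, Atp5g2, and Atp5g1 and Ndufs5 with their wide duplicates.

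Cell-cycle genes rose in the same fractions. Of a list of 7 genes of dividing cells (Mki67, Top2a, Ccnb1, Cdk1, Mcm2, Mcm5 and Pcna), 3 were called higher in aged HSCs, and 6, 3, 6 and 5 in MPP1 to MPP4, with 0 lower by edgeR, by DESeq2 or at an unadjusted p under 0.05. Their summed level was 595 to 659 CPM in young and 778 to 825 in aged HSCs, and 2140 to 2220 in young and 3070 to 3110 in aged MPP4. In HSCs 5 of 7 neutrophil genes (132 to 139 CPM in young, 306 to 374 in aged) and 4 of 5 mast cell and basophil genes (0.978 to 1.62 against 10.3 to 18.2) were also higher. In MPP3 5 of 7 neutrophil genes (4220 to 4470 CPM against 1890 to 1920), 3 of 7 erythroid genes (1070 to 1100 against 208 to 230) and 4 of 6 macrophage genes (99.1 to 108 against 30.6) were lower. In MPP2 the erythroid sum fell from 921 to 964 CPM to 210 to 223, with 3 of 7 genes lower, and 5 of 7 neutrophil genes were lower too (2370 to 2480 against 1570 to 1600). In MPP4 4 of 6 macrophage genes were lower (42.6 to 48.0 against 9.47 to 11). Of 4 megakaryocyte genes 3 were lower in MPP2 (313 to 322 against 285 to 294) and 3 in MPP3 (139 to 148 against 144 to 153), and 2 in MPP4. Mast cell and basophil genes had 3 of 5 lower and 1 higher in MPP2 (72.0 to 73.9 against 41.0 to 43.0) and 2 lower in MPP4, and B lineage genes had 3 of 6 lower in MPP3 (48.6 to 49.1 against 42.4 to 42.6). Of 5 genes of T and NK cells, 2 were higher in HSCs (26.5 to 29.5 against 80.8 to 91.5). Their part in the members' differences was not tested.

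The start regions of members were read for letters that known regulators of mitochondrial genes bind, since members that move together could share them. RefSeq start regions (GRCm38.p6, 250 bases before to 50 after the start) were found for 70 of 87 members. Of the 5 called in HSCs and all MPP fractions, Uqcrq and Cox6c had no entry. On either strand, the NRF1 letters GCGCANGCG stood in 21 of 70 (30.0%), against 13.1% of the 10646 tested genes with an entry and 6.47% of all 27025 entries. The GABPA letters CCGGAAGT stood in 7.14% of members, 7.84% of tested genes and 4.0% of all entries. The YY1 letters AAGATGGCG stood in 8.57%, 3.07% and 1.49%, the ERR letters TCAAGGTCA in 2.86%, 0.272% and 0.407%, and TATAAA in 7.14%, 7.18% and 14.2%. None of these 5 strings contains another. Of the 21 members with the NRF1 letters, 14 (66.7%) were called higher in at least 1 MPP fraction, and of the 49 without them 32 (65.3%). The 2 shares are close to each other. The 250 bases before the start are shown for 3 members that differ in these letters, on the gene's strand with found letters in capitals. Atp5k (chr5:108434400-108434649, minus strand) rose in 5 fractions and has the NRF1 letters, Cox5a (chr9:57520982-57521231, plus strand) rose in the same 5 and has none of the 5 searched, and Atp5g3 (chr2:73911327-73911576, minus strand), higher in MPPs and lower in GMPs and CLPs, has the ERR letters reversed here and the NRF1 letters past its start.
Atp5k: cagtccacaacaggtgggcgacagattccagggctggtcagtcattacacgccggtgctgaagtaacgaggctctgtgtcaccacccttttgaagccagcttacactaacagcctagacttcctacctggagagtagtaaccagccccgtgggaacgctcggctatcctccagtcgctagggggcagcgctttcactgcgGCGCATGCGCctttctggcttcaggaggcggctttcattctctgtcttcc
Cox5a: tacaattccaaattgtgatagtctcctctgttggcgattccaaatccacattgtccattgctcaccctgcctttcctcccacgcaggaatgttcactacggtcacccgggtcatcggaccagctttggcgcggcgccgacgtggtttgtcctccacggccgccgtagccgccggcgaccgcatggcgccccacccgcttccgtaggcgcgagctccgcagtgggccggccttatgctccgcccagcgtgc
Atp5g3: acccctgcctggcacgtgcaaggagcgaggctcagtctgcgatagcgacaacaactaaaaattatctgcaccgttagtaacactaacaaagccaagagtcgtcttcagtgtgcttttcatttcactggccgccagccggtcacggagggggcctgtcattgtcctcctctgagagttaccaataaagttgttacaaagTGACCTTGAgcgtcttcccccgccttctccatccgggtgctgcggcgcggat

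In GMPs and CLPs the called members were lower with age. In aged GMPs 0 members were called higher, against a background of 9.93%, and 19 lower, against 8.97%. In aged CLPs 0 were higher (background 5.71%) and 8 lower (4.73%), and in aged MEPs 2 were higher (9.08%) and 1 lower (11.7%). Of the other short genes 7.99% were lower in CLPs, near the 9.2% of members, and 2.45% higher. In GMPs 6.26% of the other short genes were lower, against 21.8% of members, and 3.72% higher. With GC and length offsets, 18 members were higher and 1 lower in MEPs and their median was 0.12, against 0.06 over all tested genes. In GMPs the members' median was -0.12 with these offsets, against -0.02 over all tested genes. At an unadjusted p under 0.05, 0 members were higher in GMPs and 2 in CLPs, and DESeq2 called 0 and 1 higher. The members' medians were -0.19 in GMPs, 0.03 in MEPs and -0.23 in CLPs, and all tested genes had medians of 0.00 in each. Other short genes had a median of -0.14 in CLPs, -0.02 in GMPs and 0.00 in MEPs, and with GC and length offsets the members' median in CLPs was -0.10. With 1 library left out, the members' median was -0.27 to -0.13 in GMPs and -0.26 to -0.21 in CLPs. The number called in GMPs varied with the library left out. Fitted on the 4 libraries of a fraction alone, GMPs had 4 calls and CLPs and MEPs 0, with 37 GMP and 45 CLP members lower at an unadjusted p under 0.05.

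In GMPs ATP synthase had the most calls. Of 16 ATP synthase genes 8 were lower, with 6 of 29 accessory and 1 of 7 core subunits and 2 of 8 assembly factors of complex I, 1 of complex III and 1 of complex IV, and 0 of complex II. Ndufaf4, an assembly factor of complex I, had 68.0 and 65.7 CPM in young and 42.5 and 38.5 CPM in aged GMPs. This gap was far wider than that between duplicates (fold 0.606, log2 -0.72, SE 0.12, adjusted p = 1.14e-04). Atp5e, the epsilon subunit in the central stalk, had 130 and 111 CPM in young and 73.8 and 89.7 in aged GMPs (log2 -0.56, adjusted p = 0.00155). Atp5l, a membrane subunit, fell by 0.51 (adjusted p = 0.00348). Atp5f1, a part of the outer stalk, had 511 and 507 CPM in young and 345 and 371 CPM in aged GMPs, a log2 value of -0.51. Atp5a1 and Atp5b fell by 0.28 and 0.22 and Uqcrfs1 by 0.45.

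In CLPs the 8 calls were 4 accessory subunits of complex I, 1 gene each of complexes III and IV and 2 of ATP synthase. Atp5k had 42.0 and 40.4 CPM in young and 27.2 and 23.3 CPM in aged CLPs (fold 0.613, log2 -0.71, SE 0.13, adjusted p = 4.08e-04). Ndufb7, an accessory subunit of complex I, had 98.4 and 93.6 CPM against 67.6 and 67.8 (log2 -0.50, adjusted p = 0.00136). Atp5g3, which makes the proton-carrying c subunit, had 329 and 343 against 238 and 244 CPM (log2 -0.48, adjusted p = 5.61e-04). In each of the 3 the aged libraries lay below the young ones.

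In MEPs Ndufs7, a core subunit of complex I that carries its last iron-sulfur cluster, had 175 and 178 CPM in young and 240 and 224 CPM in aged libraries (log2 0.40, SE 0.10, adjusted p = 0.00602). Sdhc, a membrane anchor of complex II, rose by 0.28 (adjusted p = 0.00635) and Atp5f1 fell by 0.25 (adjusted p = 0.00819). The other 84 members were not called.

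Markers of other cells moved with age in these fractions. In CLPs all 7 neutrophil genes (1860 to 1900 CPM in young, 335 to 341 in aged), all 6 B lineage genes (2560 to 2630 against 1250), all 5 mast cell and basophil genes (1740 to 1790 against 8.26 to 12), all 6 macrophage genes (137 to 152 against 2.6 to 3.24) and 5 of 7 cycling genes (3400 to 3420 against 2370 to 2800) were lower. A list of 4 plasmacytoid dendritic cell genes (Siglech, Ccr9, Klk1 and Bst2), added after values were seen, was higher in all 4 (1780 to 1790 against 3530 to 5360 CPM), with Siglech at 1060 in young and 2620 in aged CLPs. In GMPs 3 of 7 erythroid genes (772 to 844 against 30.5 to 82.7 CPM), 4 of 7 neutrophil genes (83300 to 84300 against 82800 to 83200) and 3 of 6 macrophage genes (135 to 150 against 102 to 138) were lower, with 2 of 5 mast cell and basophil genes (645 to 656 against 270 to 351), and 4 cycling genes were higher and 2 lower. Megakaryocyte genes had 3 of 4 higher in CLPs (36.1 to 38.6 against 103 to 155). Of 7 erythroid genes 1 was lower and 0 higher in CLPs (1370 to 1420 against 73.1 to 522). In MEPs all 6 B lineage genes were lower (182 to 193 against 0.43 to 1.22 CPM), 4 of them at 0 in aged cells. There 1 of 7 erythroid genes was lower and 0 higher (1130 to 1160 against 527 to 543). Of 7 neutrophil genes 2 were lower and 1 higher in MEPs (237 to 262 against 24.7 to 116). Macrophage genes had 3 of 6 lower and 0 higher in MEPs (5.53 to 8.64 against 0 to 0.516). Their part in the members' differences was not tested.

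Whether the age difference itself varied between fractions was tested by subtracting the mean difference of MPP1 to MPP4 from that of each other fraction. In GMPs 60 of 87 members had a lower value, against a background of 13.8%, and 0 a higher one, against 12.7%. In CLPs 66 were lower (background 12.3%) and 0 higher (10.3%), and in MEPs 35 lower (14.7%) and 0 higher (10.2%). In HSCs 2 were lower (1.1%) and 0 higher (1.91%). At an unadjusted p under 0.05 the higher members numbered 0 in GMPs, 2 in CLPs, 0 in MEPs and 1 in HSCs, and DESeq2 called 0 higher in each. The medians were -0.56, -0.57, -0.34 and -0.12, against 0.05, 0.04, -0.03 and 0.05 over all tested genes and -0.15, -0.22, -0.12 and 0.06 over other short genes. With GC and length offsets the members' medians were -0.44, -0.35, -0.15 and -0.19, with 57, 53, 26 and 13 members lower and 0, 1, 2 and 0 higher. These comparisons share the MPP libraries, and 56 members were lower both in the GMP and in the CLP comparison. The share of all tested genes lower in both was not taken.

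Every complex had members with such a difference in GMPs and CLPs. In GMPs 12 of 16 ATP synthase genes, 10 of 15 of complex IV, 7 of 8 of complex III, 3 of 4 of complex II and, of complex I, 5 of 7 core and 19 of 29 accessory subunits and 4 of 8 assembly factors were lower than in MPPs. In CLPs the numbers were 14, 11, 7, 2, 4, 24 and 4 in the same order. In MEPs they were 11, 6, 4, 0, 2, 12 and 0. Uqcrq had the largest difference in GMPs, -1.04 on the log2 scale (SE 0.12, adjusted p = 1.25e-06), followed by Ndufb6, an accessory subunit of complex I, with -1.03. In CLPs Atp5k had -1.30 (SE 0.14, adjusted p = 5.00e-07) and Uqcrq -1.23. In MEPs Atp5e had -0.88 and Ndufb6 -0.80, and the 2 calls in HSCs were Atp5b (-0.31, SE 0.054, adjusted p = 0.0011) and Atp5a1 (-0.30).

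The opposite directions also appeared within single genes. Of the 57 members called higher in some fraction and the 24 called lower in some fraction, 21 were both. The share of all tested genes called in both directions was not taken, so it is not known whether this number is particular to members. Among these 21 the widest ranges over fractions were those of Atp5k (1.37 on the log2 scale), Uqcrq (1.34), Atp5g3 (1.11), Ndufb6 (1.09), Atp5e (1.06) and Ndufv2 (1.06). Uqcrq fell in CLPs from 84.6 and 81.8 CPM to 63.2 and 58.0. In GMPs it had 127 and 121 CPM in young and 98.2 and 107 CPM in aged libraries, which did not overlap but were not called (adjusted p = 0.066). Ndufb6 (chr4:40270591-40279421, minus strand) rose by 0.62 in MPP4 and fell by 0.46 in GMPs and 0.43 in CLPs. Lower in 2 fractions, the most for any member, were Atp5f1 (GMPs and MEPs), Atp5g3, Ndufb2 and Ndufb6 (GMPs and CLPs), and Cox7a2l (MPP4 and GMPs).

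The young fractions were compared with young HSCs, the same 2 libraries serving all 7 comparisons. The MPPs had few differences. MPP1 had 1 member higher (background 9.1%) and 7 lower (5.67%), MPP2 had 8 higher (17.5%) and 8 lower (16.1%), MPP3 had 7 higher (17.5%) and 4 lower (12.8%), and MPP4 had 7 higher (18.5%) and 7 lower (16.1%). The shares of members were near or under those of all genes, apart from the falls in MPP1. There 8.05% of members were lower, against 12.5% of the other short genes. Medians lay between -0.14 in MPP1 and 0.01 in MPP3, and those of all tested genes between -0.03 and 0.00. The other short genes had medians of -0.22, -0.24, -0.17 and -0.17 from MPP1 to MPP4. Cox5a was higher in MPP2 by 0.60 (adjusted p = 6.38e-05) and in MPP3 by 0.66, Ndufa4 in MPP3 by 0.61 and in MPP4 by 0.92 (adjusted p = 9.00e-08), and Ndufs1 in MPP1 by 0.34 and in MPP2 by 0.48. Uqcrh, the hinge protein of complex III, was lower in all 4, by -0.49 to -0.55. Cox7a2l was lower in all 4 as well, by -0.46 in MPP1, -0.79 and -0.63 in the next 2 and -0.38 in MPP4. Ndufa7 was lower in MPP1 by -0.57.

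In young GMPs 74 members were higher than in young HSCs (background 31.8%) and 1 lower (32.8%). In young MEPs 71 were higher (29.7%) and 4 lower (39.0%), and in young CLPs 41 were higher (29.2%) and 5 lower (28.1%). The members' medians were 0.79, 0.90 and 0.33, against -0.04, -0.24 and 0.00 over all tested genes. Over the other short genes they were 0.06, 0.00 and 0.03. Scaling matters in GMPs, where the 7 neutrophil genes alone summed to at least 83300 CPM in young libraries: with DESeq2 size factors the members' median was 0.68 with 70 higher and 2 lower, and that of all genes -0.16. With total counts alone the members' sum was 15690 CPM in young GMPs against 11316 in young HSCs. Higher in both GMPs and MEPs were 69 members. Both comparisons share the young HSC libraries, and the share of all tested genes higher in both was not taken. By complex, GMPs had 7 of 7 core and 24 of 29 accessory subunits and 7 of 8 assembly factors of complex I higher, 4 of 4 of complex II, 7 of 8 of complex III, 11 of 15 of complex IV and 14 of 16 of ATP synthase. In MEPs these were 7, 21, 5, 4, 8, 12 and 14, and in CLPs 4, 13, 2, 1, 4, 9 and 8.

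Cox5a rose from 88.9 and 90.7 CPM in young HSCs to 340 and 306 CPM in young GMPs (3.59-fold, adjusted p = 5.78e-13) and to 253 and 265 CPM in young CLPs (2.89-fold). Cox7a2l went the other way, from 167 and 186 CPM in young HSCs to 113 and 106 in GMPs (log2 -0.69) and 84.1 and 84.4 in MEPs (0.477-fold, adjusted p = 9.30e-11). It was the 1 member lower in GMPs. Atp5g1 had 56.5 and 65.1 CPM in HSCs, 327 and 158 in GMPs and 224 and 415 in MEPs, so its calls (log2 2.00 and 2.39, SE 0.42) rest on duplicates that differ widely.

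Of the subunits that exist in several forms, Cox6a2, Cox6b2 and Cox4i2 differed sharply between fractions. Cox6a2, the heart and muscle form of a complex IV subunit, had 2397 and 2397 counts in young CLPs (197 and 194 CPM) and 3329 and 2743 in aged CLPs (257 and 204 CPM), which did not differ beyond their spread (log2 0.24, adjusted p = 0.49). It had 0 counts in HSCs, MPP1, MPP2 and MEPs of both ages, 33 and 30 in young and 71 and 60 in aged MPP4, and 4 or fewer in any other library. Against a floor of 3 counts over the young HSC group, young CLPs were at least 1810-fold and young MPP4 at least 19.9-fold higher. Cox6a2 met the minimum of 320 counts only through its counts in CLPs. Its high level there is therefore a description and no independent result. Cox6a1, the form found in most tissues, had 242 and 241 CPM in young CLPs. In CLPs plasmacytoid dendritic cell genes were present at the levels given above, and their part in the Cox6a2 level was not tested.

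Cox6b2, known as the testis form, was highest in MEPs, with 54.1 and 64.5 CPM in young and 62.8 and 57.1 CPM in aged libraries, against 8.66 and 12.1 in young HSCs (5.69-fold, log2 2.51, SE 0.16, adjusted p = 5.57e-12). In CLPs it was lower than in HSCs, at 4.68 and 4.54 CPM (log2 -1.17). Cox4i2, known as the lung form, had 44 and 37 counts in young HSCs (3.56 and 2.41 CPM) and 0 in all 4 MEP libraries. Young MEPs were thus at least 28.8-fold lower, against a floor of 3 counts over the group. Young MPP4 was lower than young HSCs by -1.98 on the log2 scale (SE 0.50, adjusted p = 0.00312). Its partner Cox4i1 had 279 and 319 CPM in young HSCs and 439 and 453 in young MEPs. None of Cox6a2, Cox6b2 and Cox4i2 was called between ages in any of the 8 fractions by edgeR, the lowest adjusted p being 0.0272 for Cox6a2 in MPP4.

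**Figure D5:**
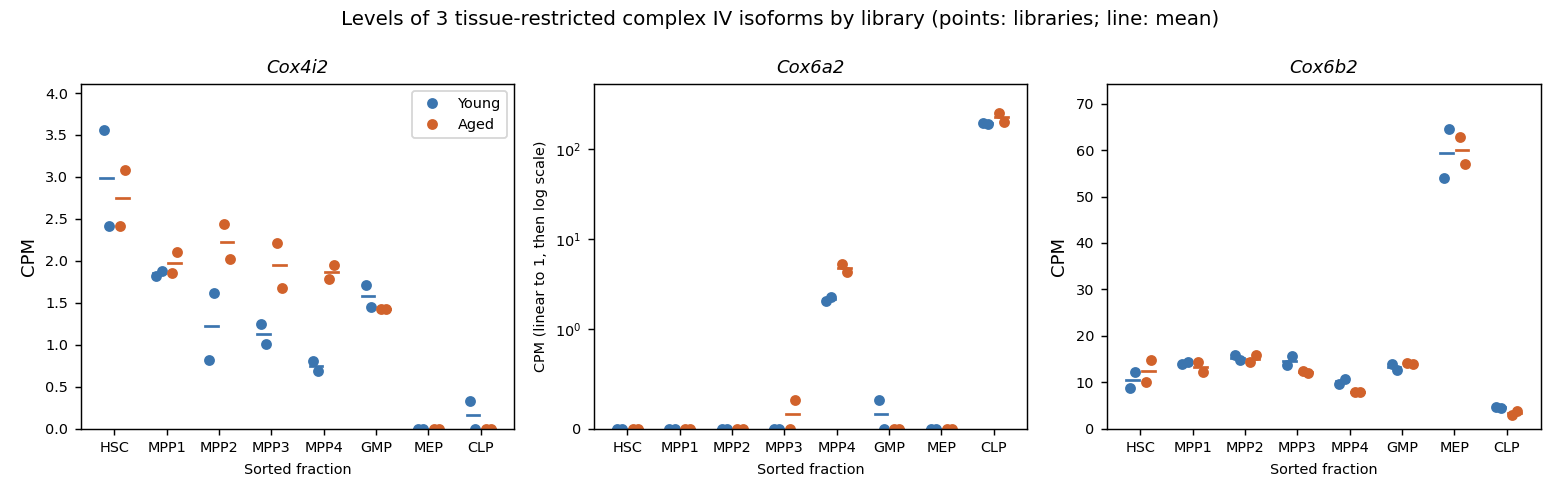
CPM of Cox4i2, Cox6a2 and Cox6b2 in each library by fraction and age, with bars at group means (the Cox6a2 axis is logarithmic above its linear start). Cox6a2 stands at 194 to 257 in CLPs and at 0 in HSCs, Cox6b2 at 54.1 to 64.5 in MEPs, and Cox4i2 at 0 in MEPs.

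Among the common forms, Cox4i1 was called between ages in no fraction. Cox6a1 was called in MPP1 to MPP4 by 0.46 to 0.58, as were Cox7a2 (0.39 to 0.52) and Cox7b (0.42 to 0.51), and Cox8a was called in MPP4 (0.51). Of the genes for the c subunit of ATP synthase, Atp5g3 was called in MPP1 to MPP4 by 0.46 to 0.63. Atp5g2 had values of 0.16 to 0.27 in these fractions and was not called, and Atp5g1 could not be judged for the spread of its duplicates. Atp5g1 and Atp5g2 share most of their windows with other genes. Ndufa4 had values of 0.35 in HSCs and 0.08 in MPP4 and was not called.

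Other genes of the pathway were read from 2 lists. The first held 46 genes of further assembly factors, electron carriers, Cyc1, Atpif1 and carriers of ADP, ATP and phosphate. Of these 3 were higher in aged HSCs (background 3.74%), and 6, 5, 10 and 15 in MPP1 to MPP4 (4.71%, 4.49%, 8.14% and 10.3%). In each of these fractions 0 were lower by edgeR. In GMPs 0 were higher (9.93%) and 6 lower (8.97%). MEPs had 2 (9.08%) and 2 (11.7%), and CLPs 1 (5.71%) and 0 (4.73%). At an unadjusted p under 0.05 at most 1 was lower in HSCs or any MPP fraction and 1 was higher in GMPs, and DESeq2 called 0 in these directions. Medians ran from 0.13 in HSCs to 0.27 in MPP4 and were -0.16 in GMPs and -0.01 in CLPs. Cycs, the cytochrome c that carries electrons from complex III to IV, was higher in HSCs (log2 0.39, adjusted p = 0.00155) and in all MPPs, up to 0.85 in MPP4 (165 to 298 CPM, adjusted p = 5.4e-08). It was lower in GMPs (627 to 419 CPM, log2 -0.58, adjusted p = 5.2e-06) and MEPs (-0.29). Cyc1, the cytochrome subunit of complex III, rose by 0.51 in MPP1 to 0.77 in MPP4 and by 0.41 in MEPs. Slc25a5, which exchanges ADP for ATP, rose by 0.53 to 0.71 in MPP1 to MPP4, and the phosphate carrier Slc25a3 rose in MPP2 to MPP4 and fell by 0.49 in GMPs. Etfa and Etfb, which take electrons from fatty acid oxidation, were called in 5 and 4 fractions. Atpif1, an inhibitor of ATP synthase, was called in HSCs (0.48, adjusted p = 0.00916) and in no other fraction.

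Of 19 tested regulators of respiratory genes and of mitochondrial DNA, 0 were called in HSCs and MPP1, with 0 lower in MPP2, MPP3 and MPP4. In these 3 fractions 1, 2 and 2 were higher, near the shares of all tested genes (4.49%, 8.14% and 10.3%). In GMPs 6 were higher (background 9.93%) and 4 lower (8.97%). MEPs had 2 (9.08%) and 5 (11.7%), and CLPs 0 (5.71%) and 1 (4.73%). At an unadjusted p under 0.05, 1 regulator was higher and 2 lower in HSCs and 6 and 1 in MPP1, and DESeq2 called 0 in both. Nrf1 and Gabpa, which bind the letters searched above, were called in 0 of 8 fractions, and Nrf1 had -0.28 in HSCs (adjusted p = 0.0241). Tfam, which packages and transcribes mitochondrial DNA, fell in GMPs (88.8 to 58.6 CPM, log2 -0.60, adjusted p = 3.36e-05) and MEPs (-0.31). Esrra rose in GMPs by 0.58 and in MEPs by 1.22 (10.1 to 23.5 CPM, adjusted p = 6.71e-07). The coactivator Ppargc1b rose in GMPs by 0.86 (adjusted p = 0.00541). Ppargc1a had at most 6.24 CPM in any group (aged HSCs) and 0 in GMPs, and in MEPs it was called lower from 6 and 8 counts to 0 in both libraries.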

How the data were processed

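Gene counts of 32 RNA-seq libraries were used as deposited. Per the labels and the study, the authors amplified cDNA (SMARTer Ultra Low Input), sequenced single reads, aligned them to mm10 with TopHat2 2.0.13 and Bowtie2 2.1.0, and took raw counts from StringTie over an iGenomes annotation, with no normalization. The reads had no molecular identifiers, so PCR copies were counted and floors cover counting error only. The authors' normalized table and their 8 tables of fold changes and p-values were not used.

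The members, gene lists and promoter letters were chosen with earlier results of these data known. Groups came from the labels. Counts were tested with edgeR 4.0.16 (R 4.3.3): TMM, filterByExpr over 16 groups, 1 mean per group, quasi-likelihood F-test on all 32 libraries (16 residual degrees of freedom, coefficient of variation 0.113), two-sided, with Benjamini-Hochberg adjustment over 14154 genes within each contrast. The call level was an adjusted p of 0.01. Fold changes and SEs are on edgeR's log2 scale, and levels are TMM-scaled CPM. The edgeR test was tested on simulated data first. Alternatives were DESeq2 1.42.0, its size factors, no filter, offsets for GC content and length, a replicate block, the compared libraries alone, an adjusted p of 0.05, and leaving out each library.

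Named members were, per contrast, the 3 largest rises and falls with age and the 2 largest between fractions or age differences among calls, those called in most fractions or in opposite directions, 10 subunits with defining roles and sets of paralogs. From other lists, genes called in 4 or more age contrasts and 8 regulators or carriers were named. Other genes shown are examples chosen after their values were seen. Positions come from GENCODE M21 (GRCm38). Of all symbols 23350 matched directly, 675 through a synonym and 396 not at all. Windows of 60 bases and exon overlap were counted on its transcripts.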

Additional observations from a re-analysis of the deposited data

Results flagged for a closer look

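In 8 results the age difference of a member in 1 fraction departed from the mean age difference of MPP1 to MPP4 by a direct test of that difference, and these were the 2 largest called in each fraction. All 8 were negative on the log2 scale. In HSCs they were Atp5b (-0.31) and Atp5a1 (-0.30), the catalytic head of ATP synthase, which rose in MPPs and was not called in HSCs. In GMPs they were Uqcrq (-1.04) and Ndufb6 (-1.03), and Ndufb6 also led in MEPs (-0.80) behind Atp5e (-0.88). In CLPs they were Atp5k (-1.30) and Uqcrq (-1.23), both called higher in every MPP fraction and lower in CLPs. Ndufb6 shares 33.0% of its windows with other genes, and Uqcrq and Atp5k share none.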

How the results depend on the processing

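With 2 libraries per group the number of called members depends on the settings more than their direction does. Of the values of named genes under alternatives that kept all libraries, 1203 kept direction and side of the threshold, 68 no longer passed, 50 passed newly and 2 reversed. The reversed values were those of Cox6c in MEPs, 0.18 with GC and length offsets with or without the replicate block, against -0.03. Leaving out 1 library gave 727, 154 and 3 in the same order and 0 reversals.

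At an adjusted p under 0.05 the members called with age numbered 21 for HSCs, 47 for MPP1, 60 for MPP2, 31 for GMPs, 8 for MEPs and 31 for CLPs. Against young HSCs they numbered 16, 28, 26 and 25 for MPP1 to MPP4, and 7 for the HSC difference from the MPPs. DESeq2 called 19 in HSCs, 45 in MPP1, 29 in GMPs, 6 in MEPs and 22 in CLPs with age, 17 in young MPP3, 22 in young MPP4, and 4 for the HSC difference. Fitting only the compared libraries called 0 in HSCs, 51 in MPP1, 68 in MPP2, 13 in MPP4, 4 in GMPs and 0 in MEPs and CLPs with age. At an unadjusted p under 0.05 that fit had 18 higher and 0 lower in HSCs, 6 higher and 7 lower in MEPs, and 1 higher and 45 lower in CLPs. Against young HSCs it called 3, 10, 5 and 4 for MPP1 to MPP4 and 30 for CLPs. Without a filter MPP2 had 25 calls with age. With GC and length offsets the calls were 19 in MEPs (18 higher) and 5 in CLPs with age, 20 in young MPP3, 22 in young MPP4 and 13 for the HSC difference. With the replicate block added they were 18, 5 and, for young MPP3 and the HSC difference, 19 and 13. The members' median was 0.21, 0.26 and 0.30 for MPP1 to MPP3 and -0.10 for CLPs with these offsets, with or without the block, and 0.32 in MPP3 with DESeq2 or its size factors. The GMP fall and the MPP1 to MPP4 rise of the median kept their sign under each of these alternatives.

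Leaving out 1 library at a time gave 0 to 16 calls with age in HSCs, 2 to 18, 5 to 14, 23 to 33 and 12 to 57 for MPP1 to MPP4, 4 to 20 in GMPs, 0 to 2 in MEPs and 2 to 4 in CLPs, the lone library being assumed to vary like other groups. MPP4 had 12 without young replicate 1 and 57 without young replicate 2. The medians ran from 0.10 to 0.30 in HSCs, 0.25 to 0.37, 0.34 to 0.41, 0.39 to 0.41 and 0.30 to 0.55 for MPP1 to MPP4, -0.27 to -0.13 in GMPs, -0.08 to 0.05 in MEPs and -0.26 to -0.21 in CLPs. Against young HSCs the calls were 1 to 8, 6 to 14, 5 to 10 and 8 to 19 for MPP1 to MPP4, 64 to 73 in GMPs, 73 to 75 in MEPs and 29 to 42 in CLPs. For the differences from the MPPs they were 2 to 9 in HSCs, 48 to 69 in GMPs, 28 to 50 in MEPs and 56 to 71 in CLPs. Each such fit also redid the filter on low counts, then set by a group of 1 library, the scaling and the spread. Shifts from the full fit are therefore not those of the library alone, and these parts were not tested separately.

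Same-numbered young and aged libraries correlated in their deviations by -0.316 (MPP1) to 0.425 (MPP3). These values of both signs do not settle whether such libraries shared handling in some fractions, which was not tested. A replicate block moved no count of calls by over 1.5 times (25, 41, 39 and 54 for MPP1 to MPP4, 20 for GMPs and 7 for CLPs with age).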
